A study of Mus musculus with 11 samples.

Results

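The genes described here are 34 immediate early and stress response genes of the mouse, taken by gene symbol from the 24427 genes with a usable symbol in the deposited expression tables. They were chosen as a named list of genes known to respond within minutes to growth factors, heat and mechanical handling, and as genes that often appear when tissue is dissociated into single cells. All 34 were found in the tables, and all 34 passed the filter on low values in both comparisons made below. They comprise 8 AP-1 and related basic leucine zipper factors, 3 Egr factors, 3 Kruppel-like factors with the nuclear receptor Nr4a1, 3 Ier genes with Cyr61, 9 feedback and stress regulators and 6 heat shock proteins.

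The cells came from kidneys of CFW mice, were sorted by fluorescence, and had their messenger RNA sequenced. Six2+ cells (n = 3) and Six2- cells (n = 3) came from embryonic kidneys at E16.5 that carried 1 copy of the Six2TGC transgene (Six2TGC/+), in which Six2 regulatory sequence drives a green fluorescent Cre fusion protein in nephron progenitors. Another genotype, Cited1tagRFP/+, gave Cited1+ cells at E16.5 (n = 3). Six2+ cells were also sorted at postnatal day 2 (P2), again from Six2TGC/+ mice (n = 2). Every group therefore carried a reporter, and no unsorted or undissociated kidney is among the samples. Cited1+ and P2 Six2+ cells differ in age, in the gene that drives the reporter and in genotype, and these cannot be told apart in that comparison. Nothing in the labels ties libraries to animals or litters, so the p-values speak of spread among these libraries alone, part of which may be technical.

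Immediate early genes are transcribed without new protein synthesis, because the factors that switch them on, such as the serum response factor with its Elk partners and the cyclic AMP response element binding protein, are already present and are activated by phosphorylation. Their products include transcription factors (Fos, Jun, Egr1), and also proteins that end the response by destroying the messages or shutting off the kinases (Zfp36, Dusp1). Heat shock genes answer to a different factor, Hsf1, which is released when unfolded protein accumulates. In kidney and other tissues, enzymatic digestion and sorting are known to induce both kinds of gene and the sorted nephron progenitors of the cap mesenchyme are obtained in that way.

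Levels are given as RPKM, reads divided by the length of the transcript and the size of the library, and may therefore be compared between genes. Low values imply 16500000 to 43900000 reads per library. The sorting genes followed the labels: Six2 stood at 315 to 354 RPKM in E16.5 Six2+ libraries, at 2.72 to 17.0 RPKM in Six2- libraries, at 279 to 374 RPKM in Cited1+ libraries and at 129 to 146 RPKM in P2 Six2+ libraries. Six2- replicate 3 stood apart from the other 2 of its group with 17.0 RPKM of Six2 and 5.01 RPKM of Cited1. It also had the highest summed level of 4 erythroid markers (5268.9 RPKM). That level varied between all libraries of the group, with Hbb-bs at 246, 1421.8 and 2580.5 RPKM in replicates 1, 2 and 3. Cited1+ replicate 3 had 20737 genes above 0, against 15009 to 17496 in the other libraries. Six2+ replicate 2 had 23.7% of its summed values in ribosomal protein genes, against 12.6% to 19.2% elsewhere.

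Sequence before the start is shown for 5 genes that differ or vary between libraries below and hold a match to one of the motifs searched: the near-identical Hsp70 copies, whose spread was the largest, Hspb1 and Cyr61, which were lower in Six2+ cells, and Zfp36, which was called in both comparisons. Each line gives the 250 bases before the annotated start in RefSeq, build GRCm38.p6, 5′ to 3′ on the gene's own strand, with motif matches in capitals. Hspa1a lies at chr17:34972157-34972406 on the minus strand, Hspa1b at chr17:34959239-34959488 on the minus strand, Hspb1 at chr5:135887669-135887918 on the plus strand, Cyr61 at chr3:145649986-145650235 on the minus strand and Zfp36 at chr7:28379229-28379478 on the minus strand. In the first 3 the capitals mark a heat shock element, in Cyr61 a heat shock element and then a TATA box, and in Zfp36 a serum response element of the CArG type.
Hspa1a: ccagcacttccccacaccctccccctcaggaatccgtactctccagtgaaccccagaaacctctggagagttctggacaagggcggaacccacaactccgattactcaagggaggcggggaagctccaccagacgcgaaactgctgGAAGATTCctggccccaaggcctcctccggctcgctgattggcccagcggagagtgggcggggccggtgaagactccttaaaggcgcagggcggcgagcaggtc
Hspa1b: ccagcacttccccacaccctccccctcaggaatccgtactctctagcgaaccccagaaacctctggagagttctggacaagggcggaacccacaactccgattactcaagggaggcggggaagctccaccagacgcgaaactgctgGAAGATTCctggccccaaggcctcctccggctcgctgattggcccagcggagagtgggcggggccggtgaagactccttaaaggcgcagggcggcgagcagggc
Hspb1: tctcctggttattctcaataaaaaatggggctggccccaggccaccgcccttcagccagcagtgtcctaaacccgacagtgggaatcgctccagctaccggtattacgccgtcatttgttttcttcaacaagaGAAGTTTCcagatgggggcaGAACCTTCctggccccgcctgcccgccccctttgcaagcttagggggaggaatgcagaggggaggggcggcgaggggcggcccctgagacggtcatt
Cyr61: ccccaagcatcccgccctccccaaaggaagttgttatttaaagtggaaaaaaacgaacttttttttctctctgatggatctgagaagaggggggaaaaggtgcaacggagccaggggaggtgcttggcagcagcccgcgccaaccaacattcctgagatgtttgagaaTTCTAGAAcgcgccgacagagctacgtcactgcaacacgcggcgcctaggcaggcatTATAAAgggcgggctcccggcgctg
Zfp36: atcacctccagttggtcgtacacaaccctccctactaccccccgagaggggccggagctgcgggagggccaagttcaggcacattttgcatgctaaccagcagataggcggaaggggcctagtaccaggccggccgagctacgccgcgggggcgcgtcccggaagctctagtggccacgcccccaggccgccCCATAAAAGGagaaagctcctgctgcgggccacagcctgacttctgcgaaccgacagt

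The windows of Hspa1a and Hspa1b, neighbouring genes for the inducible Hsp70 chaperone, were identical at 247 of 250 positions. Of the 50-base stretches of the Hspa1a transcript, 58.8% also occur in the Hspa1b transcript, so reads of either gene could have been split between them and their separate values are uncertain. The heat shock element of both copies ran from 104 to 97 bases before the start, and Hspb1 held matches at 117 to 110 and at 97 to 90 bases. Cyr61 held a heat shock element match at 82 to 75 bases and a TATA box at 25 to 20 bases, while the CArG box of Zfp36 lay 58 to 49 bases before the start.

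Promoter sequence was matched for 30 of the 34 genes, and the 4 without an entry were Egr1, Egr3, Ier2 and Hspa8. In windows of 300 bases that ended 50 bases after the start, read on both strands, the heat shock element (GAANNTTC or TTCNNGAA, spellings that can overlap each other) was found in 8 of 30 genes (26.7%), against 17.0% of 27025 genes with a promoter entry. The cyclic AMP response element (TGACGTCA) was found in 4 of 30 (13.3%), namely Maff, Dusp1, Btg2 and Ppp1r15a, against 2.0% of all genes. The CArG box was found in Egr2 and Zfp36, 6.7% of the matched genes against 1.8% of all. The letters of the TATA box (TATAAA) were found in 8 genes (26.7%) against 15.7% of all. In Junb, Nfkbia and Ppp1r15a these letters lay at or after the start, and in Nfkbia on the opposite strand. The AP-1 site (TGAGTCA) was in 0 of 30 windows, against 5.9% of all genes. These are letter matches in short windows. The genes are also short: their median span was 3567 bases, against 18202 bases over 19637 protein-coding genes.

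No member was listed at 0 in any library, and levels ran from 1.28 RPKM (Ier3 in Six2+ replicate 1) to 1682.7 RPKM (Hspa8 in Six2+ replicate 2). Hspa8, the constitutive Hsc70 chaperone, averaged 1402 ± 294 RPKM in Six2+ and 1106 ± 257 RPKM in Six2- cells (SD, n = 3 each), and 1048 ± 51.3 RPKM in Cited1+ (n = 3) and 907 ± 89.4 RPKM in P2 Six2+ cells (n = 2). The next levels by group mean belonged to Egr1 in Cited1+ cells (747 ± 64.5 RPKM) and to Cyr61 and Fos in Six2- cells (421 ± 163 and 385 ± 214 RPKM). Together the 34 genes held 0.60%, 0.79% and 1.21% of summed values in Six2+ replicates 1, 2 and 3, and 0.95%, 0.97% and 1.52% in the same replicates of Six2- cells. They held 1.05%, 1.05% and 1.24% in Cited1+ replicates 1, 2 and 3, and 0.92% and 1.07% in P2 Six2+ replicates 1 and 2.

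**Figure D1:**
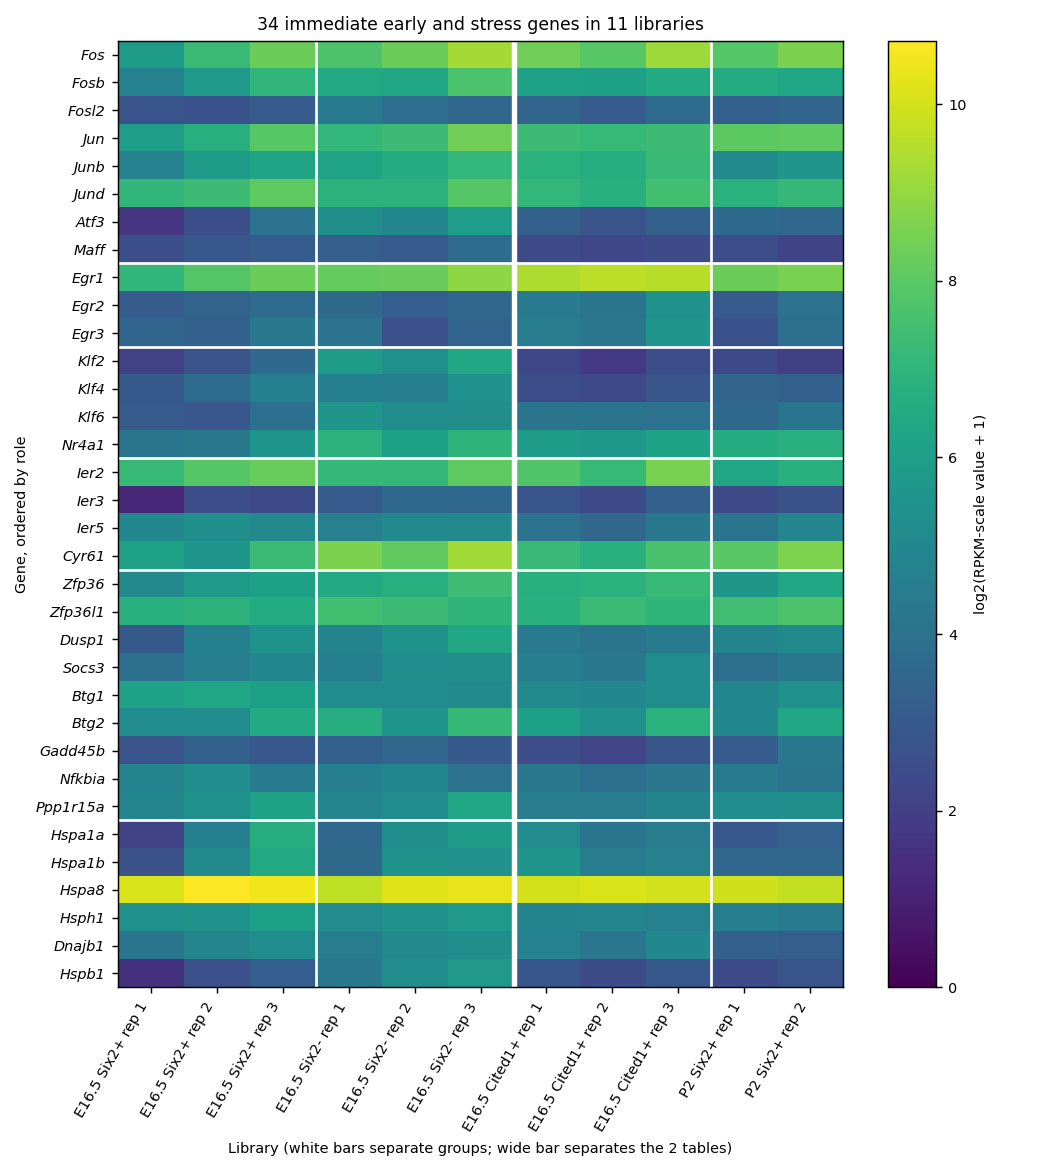
Level of each of the 34 genes (rows, ordered by role) in each of the 11 libraries (columns, by group), as log2(RPKM + 1) on a colour scale. Hspa8 is the brightest row in every library, Six2+ replicate 1 is darker than Six2+ replicate 3 for most AP-1 genes, and Klf2, Atf3 and Hspb1 are brighter in the 3 Six2- libraries than in the 3 Six2+ libraries.

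The spread between libraries of a group was larger for these genes than for most genes. The median SD of log2(RPKM + 1) between libraries was 0.59 for the 34 genes and 0.18 for all genes tested in Six2+ cells, 0.47 and 0.16 in Six2- cells, 0.30 and 0.14 in Cited1+ cells, and 0.22 and 0.11 in P2 Six2+ cells. Of the 34, 31 exceeded the median SD of all genes in Six2+ cells, 33 in Six2- cells, 27 in Cited1+ cells and 28 in P2 Six2+ cells. The spread had a shared direction. In Six2+ cells 27 of 34 genes were lowest in replicate 1 and 27 were highest in replicate 3, where 28.2% and 35.3% of all genes were. In Six2- cells 24 of 34 were highest in replicate 3 (35.2% of all genes), in Cited1+ cells 24 were highest in replicate 3 (37.2%) and 27 lowest in replicate 2 (48.8%), and in P2 Six2+ cells 25 were higher in replicate 2 (48.4%).

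Hspa1a had the widest spread. It stood at 3.34, 23.5 and 102 RPKM in Six2+ replicates 1, 2 and 3, so that the highest library held 30.4 times the lowest, and at 11.1, 39.1 and 57.5 RPKM in Six2- cells. Its copy Hspa1b stood at 5.38, 32.5 and 93.1 RPKM in Six2+ cells, a ratio of 17.3, and at 11.9, 44.4 and 42.2 RPKM in Six2- cells. Both copies kept the order of replicates 1, 2 and 3 in Six2+ cells. Among the transcription factors Fos, the AP-1 partner of Jun, ran from 55.5 over 155 to 312 RPKM across Six2+ replicates, a ratio of 5.63. Atf3, a bZIP factor induced by many stresses, differed 7.94-fold between the lowest and highest Six2+ library, and Dusp1, a phosphatase of MAP kinases, 6.31-fold. At the other end Btg1, an antiproliferative gene, differed by a ratio of 1.04 between Six2- libraries and 1.25 between Six2+ libraries.

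**Figure D2:**
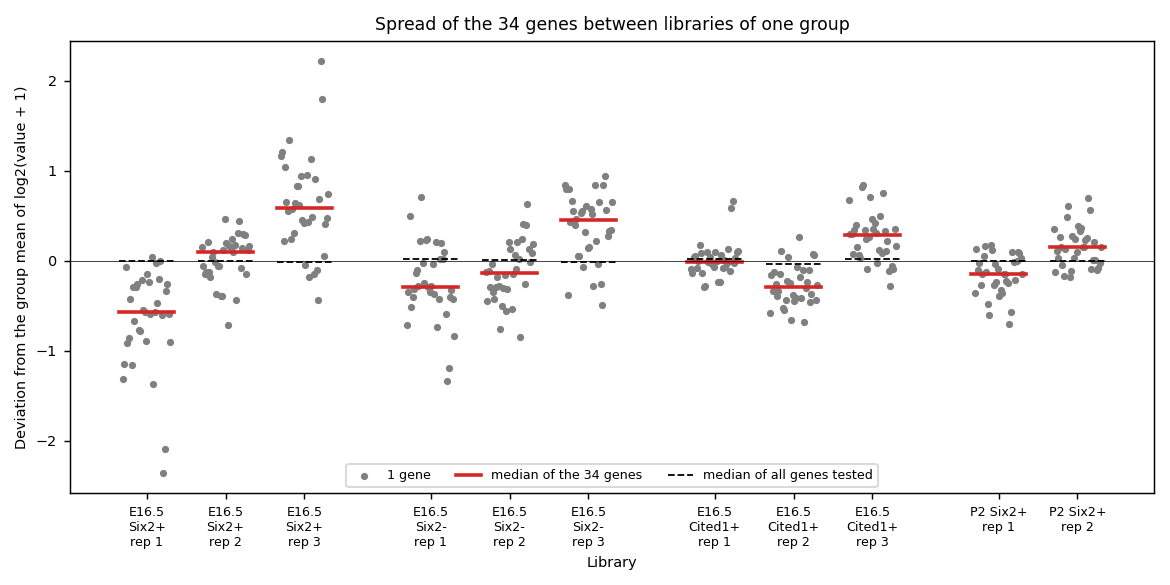
Deviation of each of the 34 genes (points) from its own group mean on the log2(RPKM + 1) scale, by library, with the median over the genes. The medians were -0.57, 0.10 and 0.59 in Six2+ replicates 1, 2 and 3 and -0.29, -0.14 and 0.45 in Six2- replicates 1, 2 and 3, while the medians over all genes stayed near 0.

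The members did not all follow the same library. In Cited1+ cells Fos was highest in replicate 3 (336, 240 and 574 RPKM in replicates 1, 2 and 3), as were Ier2, a nuclear immediate early protein (225, 146 and 378 RPKM), and Egr3, a zinc finger factor (21.9, 18 and 48.8 RPKM). The heat shock genes Dnajb1 (25.6, 17.4 and 30.8 RPKM) and Hspb1 (6.39, 4.7 and 6.69 RPKM) were highest there too. Hspa1a and Hspa1b were instead highest in Cited1+ replicate 1, with 35.5, 16.7 and 21.5 RPKM and 47.4, 22.6 and 24.1 RPKM in replicates 1, 2 and 3, and Egr1 in replicate 2 (678, 805 and 758 RPKM). Between the 2 P2 Six2+ libraries Btg2, an antiproliferative relative of Btg1 (30.7 and 82.8 RPKM), Egr3 (5.58 and 14.2 RPKM) and Gadd45b, a stress sensor that acts on MAP kinase signalling (7.78 and 18.3 RPKM), had the widest spread.

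Libraries of Six2+ and Six2- cells with the same replicate number deviated together. Over the 34 genes the correlation of their deviations from the group means was 0.80, 0.78 and 0.76 for numbers 1, 2 and 3, and -0.69 to -0.12 between libraries of different number. These are descriptions across genes, which are not independent, and deviations within a group of 3 sum to 0, which lowers the values between different numbers. Because the numbers pair the libraries over all genes as well, the value with the replicate number as a block is given below wherever it changes a call.

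The comparison of Six2+ with Six2- cells at E16.5 asks which genes mark nephron progenitors against the other kidney cells. The members were more often lower than higher in Six2+ progenitors: 11 of 34 fell and 1 rose at an adjusted p below 0.05 (limma, Benjamini-Hochberg adjustment over 11882 genes). Among all genes tested 18.1% were called lower and 20.5% higher (2149 and 2440 genes, and 2106 and 1546 after rescaling libraries to the same total). With the replicate block 20 fell and 2 rose, where 22.2% and 30.3% of all genes were called. The median difference of the 34 genes was -0.64 on the log2(RPKM + 1) scale, against 0.12 for all genes, and 26 differences were negative and 8 positive. That scale understates the change of low genes. In bulk RNA, fewer cells with a transcript and less of it per cell cannot be told apart.

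Within all 3 same-numbered pairs, 22 of the 34 genes were lower in Six2+ cells, where 29.2% of all genes were, and 6 were higher, where 43.3% of all genes were. The 22 include all AP-1 genes except Jund, all 3 Kruppel-like factors, Nr4a1, Cyr61 and Hspb1. The 6 higher in every pair were Jund, Ier2, Btg1, Nfkbia, Hspa8 and Hsph1. Groups did not overlap for 10 genes that were lower (22.0% of all genes) and for 1 that was higher (29.9%).

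**Figure D3:**
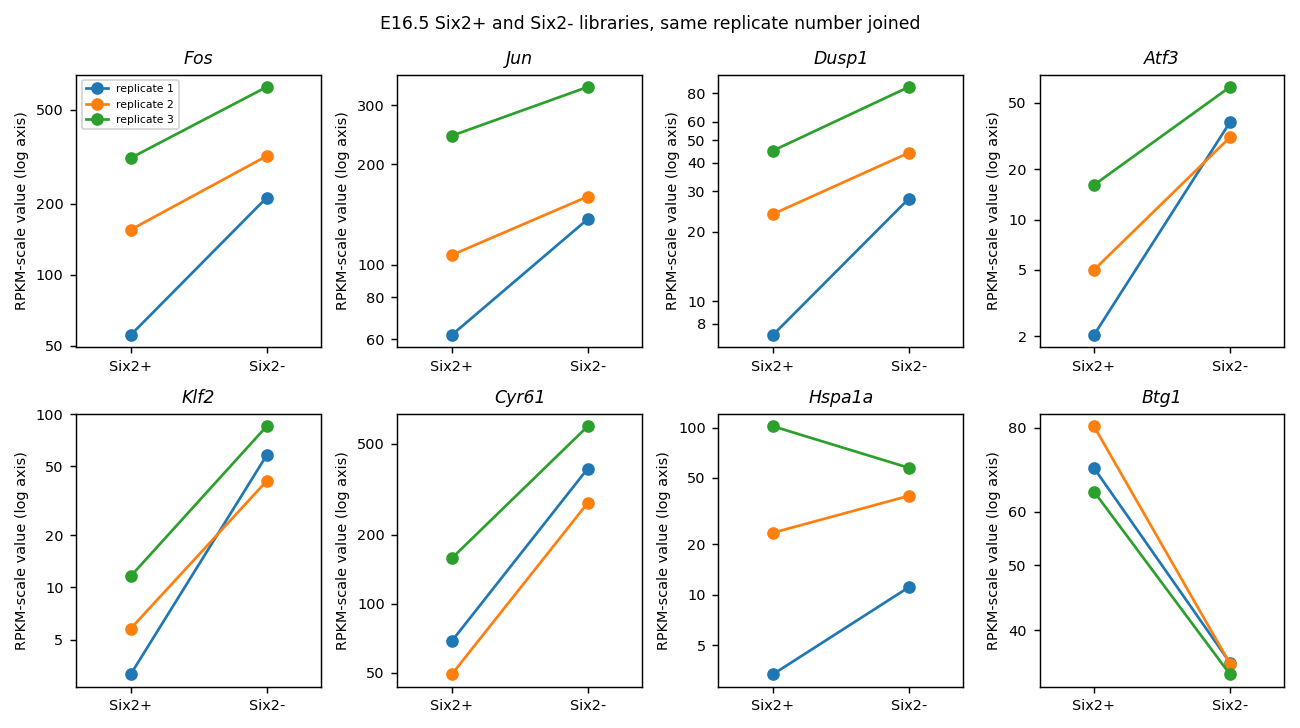
RPKM on a log axis of 8 members in Six2+ (left) and Six2- (right) libraries at E16.5, with lines joining libraries of the same replicate number. The lines of Fos, Jun, Dusp1, Atf3, Klf2 and Cyr61 end higher on the Six2- side in all 3 pairs and those of Btg1 end lower, while Hspa1a is higher in Six2+ cells in replicate 3 and higher in Six2- cells in replicates 1 and 2.

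Among the AP-1 and related factors 3 of 8 fell in Six2+ cells, and 7 of 8 with the replicate block. Atf3 stood at 2.03, 4.99 and 16.1 RPKM in Six2+ cells, against 38.3, 31.1 and 62.3 RPKM in Six2- cells. Every Six2+ library lay below every Six2- library, and the difference was -2.67 ± 0.54 (log2, SE, here and below; adjusted p = 0.00456). Fosl2, a Fos family member often expressed later than Fos, had 5.85, 5.51 and 7.38 RPKM in Six2+ cells and 20.6, 13.2 and 10.8 RPKM in Six2- cells, again without overlap (-1.09 ± 0.22, adjusted p = 0.00441). Junb, a Jun family member, had 26.1, 55.9 and 76.6 RPKM in Six2+ cells and 76.5, 99.0 and 137 RPKM in Six2- cells. Its groups touched, its difference was -1.05 ± 0.36 (adjusted p = 0.0477), and it held its call in 9 of 15 alternative settings.

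Fos had 55.5, 155 and 312 RPKM in Six2+ cells and 212, 318 and 624 RPKM in Six2- cells, so the groups overlapped, while each Six2+ library lay below its own partner, by log2 differences of -1.92, -1.04 and -1 in pairs 1, 2 and 3. The difference of -1.32 had an SE of 0.59 (adjusted p = 0.109), and an SE of 0.19 with the replicate block (adjusted p = 0.00117). Fosb (-1.02, adjusted p = 0.169 and, blocked, 0.00796), Jun (-0.73, 0.265 and, blocked, 0.00539) and the small Maf protein Maff (-0.48, 0.1 and, blocked, 0.0192) likewise passed with the block. Jund, which is known for steady expression in resting cells, had 133, 164 and 262 RPKM in Six2+ cells and 119, 116 and 235 RPKM in Six2- cells, and was not called with or without the block.

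Of the Egr factors, Egr1 had 133, 227 and 315 RPKM in Six2+ cells and 286, 307 and 480 RPKM in Six2- cells (-0.71 ± 0.32, adjusted p = 0.110, and 0.00844 with the replicate block). Egr2 and Egr3, at group means of 9.99 to 12.8 RPKM in both populations, were not called, with differences of -0.03 and 0.33.

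Among the Kruppel-like factors and Nr4a1 3 of 4 fell in Six2+ cells, and 4 of 4 with the block. Klf2, a factor known for its role in endothelium and leukocytes, had 3.15, 5.78 and 11.6 RPKM in Six2+ cells and 57.9, 41.1 and 85.1 RPKM in Six2- cells, a difference of -3.08 ± 0.39 (adjusted p = 0.000294). Klf6 had 7.48, 6.5 and 14.1 RPKM in Six2+ cells and 47.1, 35.8 and 37.9 RPKM in Six2- cells (-2.05 ± 0.25, adjusted p = 0.000232). Nr4a1, an orphan nuclear receptor induced by many stimuli, had 16.8, 18.9 and 48.9 RPKM in Six2+ cells and 118, 67.3 and 125 RPKM in Six2- cells (-1.95 ± 0.39, adjusted p = 0.00405). None of these 3 overlapped between the groups. Klf4 did, with 7.17, 12.5 and 24.0 RPKM in Six2+ cells and 23.6, 22.8 and 42.0 RPKM in Six2- cells (-1.06, adjusted p = 0.0559, and 0.00142 with the replicate block).

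Cyr61, a secreted matricellular protein whose present symbol in RefSeq is Ccn1, had 68.6, 49.1 and 158 RPKM in Six2+ cells and 390, 276 and 597 RPKM in Six2- cells (-2.29 ± 0.42, adjusted p = 0.00259). Ier3, a small stress-inducible protein that affects cell survival, was among the lowest members, with 1.28, 4.82 and 4.65 RPKM in Six2+ cells and 7.75, 11.8 and 11.2 RPKM in Six2- cells (-1.39 ± 0.34, adjusted p = 0.0119). Their groups did not overlap, whereas those of Ier2 and Ier5 did, with differences of 0.34 and 0.18 that were not called.

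The feedback and stress regulators were mixed, with 2 of 9 lower and 1 higher in Six2+ cells. Zfp36, which encodes the messenger-destabilising protein tristetraprolin, had 32.3, 55.0 and 66.8 RPKM in Six2+ cells and 91.0, 106 and 169 RPKM in Six2- cells (-1.24 ± 0.30, adjusted p = 0.0103). Its relative Zfp36l1 had 111, 120 and 95.1 RPKM in Six2+ cells and 179, 162 and 127 RPKM in Six2- cells (-0.51 ± 0.17, adjusted p = 0.0378), and held its call in 10 of 15 alternative settings. Btg1 went the other way, with 69.7, 80.4 and 64.3 RPKM in Six2+ cells and 35.8, 35.7 and 34.4 RPKM in Six2- cells (0.99 ± 0.12, adjusted p = 0.000265). Its groups lay far apart, each with a narrow spread.

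With the replicate block 3 more feedback genes fell in Six2+ cells. Dusp1 had 7.14, 23.9 and 45.0 RPKM in Six2+ cells and 27.9, 44.1 and 85.1 RPKM in Six2- cells (-1.20, adjusted p = 0.144, and 0.0015 blocked). Socs3, an inhibitor of cytokine signalling (-0.57, 0.132 and, blocked, 0.00384), and Btg2 (-0.81, 0.178 and, blocked, 0.0109) were the others. Nfkbia, the inhibitor of NF-kB, passed as higher (0.29, adjusted p = 0.430, and 0.0292 blocked), but that call was lost when the blocked values were rescaled by the median ratio. Gadd45b and Ppp1r15a, which directs dephosphorylation of a translation initiation factor, were not called, with differences of -0.27 and -0.01.

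Of the 6 heat shock genes, Hspb1, a small heat shock protein, was the one that fell in Six2+ cells. It had 1.97, 5.19 and 8.28 RPKM in Six2+ cells and 18.4, 38.3 and 53.2 RPKM in Six2- cells (-2.64 ± 0.45, adjusted p = 0.00184). The pair differences were -2.71, -2.67 and -2.55, although the level varied 4.20-fold between Six2+ libraries. Hspa1a and Hspa1b were not called (-0.46 ± 1.01 and -0.11 ± 0.87). Hspa1a was lower in Six2+ cells in pairs 1 and 2 (-1.47 and -0.71) and higher in pair 3 (0.81), and Hspa1b did the same (-1.02, -0.44 and 1.12). Hspa8, Hsph1, an Hsp110 cochaperone, and Dnajb1, an Hsp40 cochaperone, differed by 0.35, 0.15 and -0.20 and were not called with or without the block.

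The call of 10 of the 12 genes held in all 15 alternative settings run, Junb and Zfp36l1 being the exceptions. Without Six2+ replicate 3, the library in which most members were highest, 18 members fell in Six2+ cells. Without Six2- replicate 3 the count was 10. Counts over all genes without these libraries are not given here, so neither change can be read as particular to the members.

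Markers of other kidney cells also differed between Six2+ and Six2- libraries. Summed over each list, 7 stroma markers held 54.4 to 74.8 RPKM in Six2+ and 2019.5 to 2985.1 RPKM in Six2- libraries, and all 7 were called lower. The 6 endothelial markers held 0.428 to 2.65 RPKM in Six2+ libraries, with Pecam1 and Kdr at 0 in a library, and 37.6 to 68.9 RPKM in Six2- libraries, where all 6 were called lower in Six2+ cells. The 6 macrophage and leukocyte markers held 0.241 to 3.10 RPKM in Six2+ libraries, with Ptprc and Csf1r at 0 in a library, and 64.1 to 87.7 RPKM in Six2- libraries, with 5 of 5 tested called lower. The 4 erythroid markers held 7.39 to 30.3 RPKM in Six2+ libraries and 495 to 5268.9 RPKM in Six2- libraries, and 6 nephron progenitor markers held 760 to 920 RPKM in Six2+ and 14.5 to 44.9 RPKM in Six2- libraries. Ureteric markers (6 genes, 6.37 to 11.1 RPKM in Six2+ and 26.1 to 40.8 RPKM in Six2- libraries), podocyte markers (4 genes, 1.02 to 1.23 RPKM in Six2+, with Nphs1 at 0 in a library, and, in Six2-, 14.7 to 68.8 RPKM) and proximal tubule markers (4 genes, 1.47 to 1.76 and, in Six2-, 7.89 to 10.8 RPKM) were also lower in sum. Markers with a mean below 1 RPKM in Six2+ cells, among them all 6 endothelial markers, passed the filter only through Six2- cells. The direction of their calls was therefore all but fixed in advance. The part of all these markers in the lower levels of the immediate early genes was not tested.

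**Figure D4:**
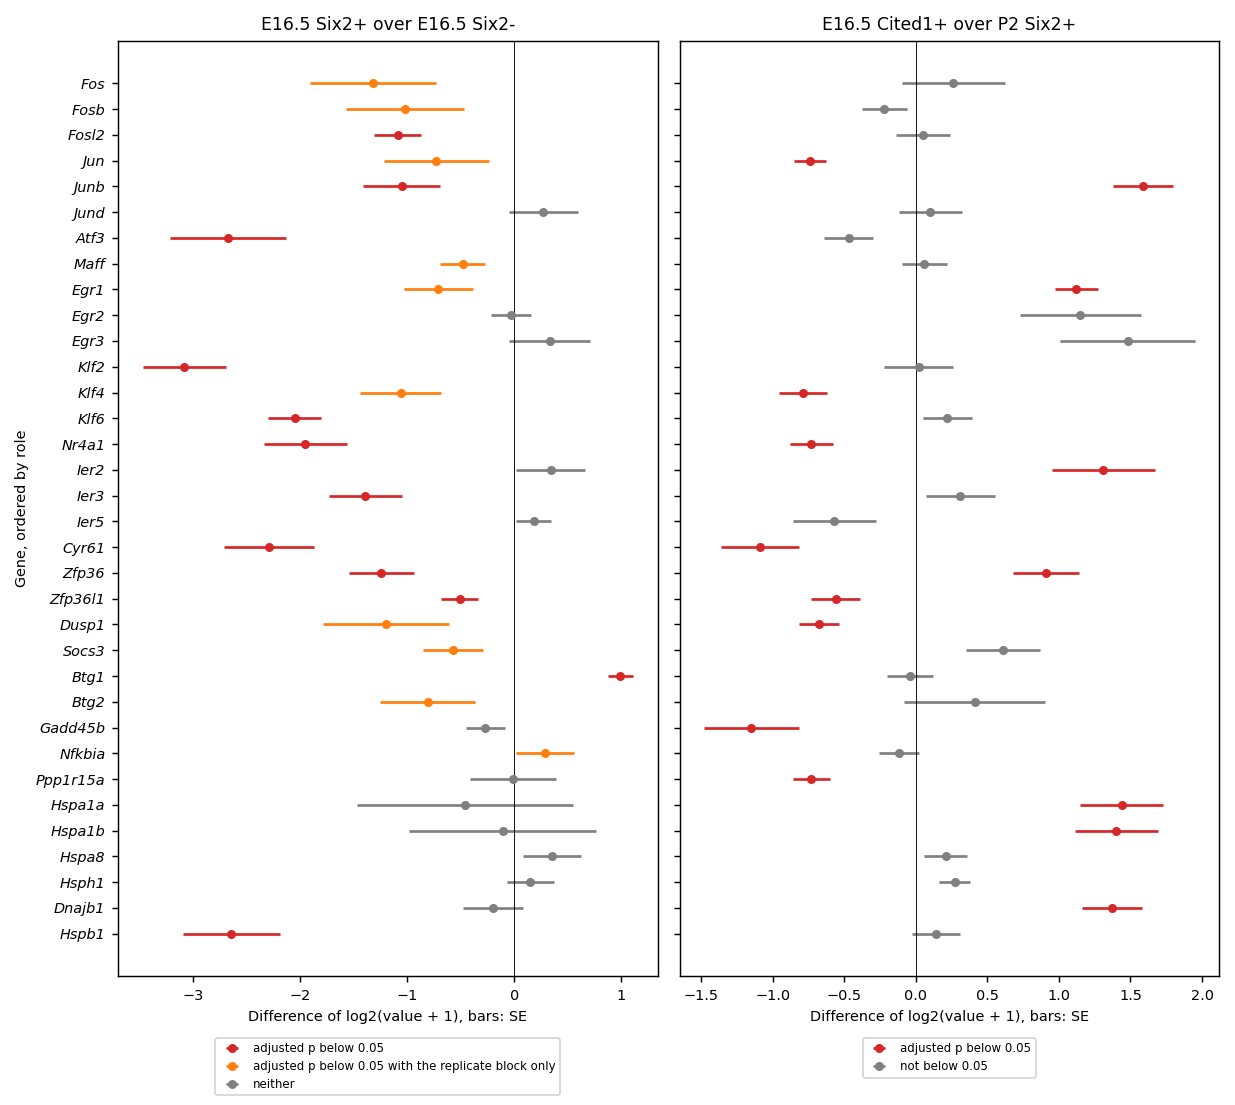
Difference of log2(RPKM + 1) for each of the 34 genes (rows, by role) with SE bars, for Six2+ over Six2- cells at E16.5 (left) and Cited1+ at E16.5 over Six2+ cells at P2 (right); the 2 axes have different ranges. Red marks an adjusted p below 0.05 and orange a call made with the replicate block only; the left panel has 11 red points below 0 and Btg1 above 0, and the right panel has 7 above and 8 below.

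The comparison of Cited1+ cells at E16.5 with Six2+ cells at P2 sets embryonic progenitors beside those near the end of nephron formation. Here the members divided: 7 of 34 rose and 8 fell in Cited1+ cells (limma, adjusted over 11876 genes), where 16.3% of all genes were called higher and 12.7% lower. The median difference was 0.12, against 0.07 for all genes, with 21 positive and 13 negative. Groups did not overlap for 11 higher and 9 lower members, against 33.9% and 24.6% of all genes. With 2 P2 libraries the calls lean on each of them, and the 3 higher calls of Junb, Egr1 and Dnajb1 held in all 14 alternative settings run.

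Egr1 was the most abundant of the genes that rose, with 678, 805 and 758 RPKM in Cited1+ cells and 313 and 375 RPKM in P2 Six2+ cells (1.12 ± 0.15, adjusted p = 0.0019). Junb had 114, 101 and 153 RPKM in Cited1+ cells and 32.6 and 47.5 RPKM in P2 Six2+ cells (1.59 ± 0.21, adjusted p = 0.00199). Neither overlapped. Egr2 (20.0, 16.9 and 44.5 RPKM in Cited1+, against 7.35 and 15.3 RPKM in P2 Six2+ cells) and Egr3 (21.9, 18 and 48.8 RPKM, against 5.58 and 14.2 RPKM) did not overlap either but missed the threshold (1.15 ± 0.42, adjusted p = 0.0799, and 1.48 ± 0.47, adjusted p = 0.0503). Ier2 had 225, 146 and 378 RPKM in Cited1+ cells and 78.4 and 110 RPKM in P2 Six2+ cells (1.31 ± 0.36, adjusted p = 0.0337), and Zfp36 had 103, 115 and 150 RPKM against 49.5 and 82.0 RPKM (0.91 ± 0.23, adjusted p = 0.0267).

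Of the 6 heat shock genes 3 rose in Cited1+ cells and 0 fell. Dnajb1 had 25.6, 17.4 and 30.8 RPKM in Cited1+ cells and 8.85 and 8.48 RPKM in P2 Six2+ cells (1.37 ± 0.21, adjusted p = 0.00402). Hspa1a had 35.5, 16.7 and 21.5 RPKM in Cited1+ cells and 6.77 and 9.41 RPKM in P2 Six2+ cells (1.44 ± 0.29, adjusted p = 0.0111), and Hspa1b 47.4, 22.6 and 24.1 RPKM against 10.6 and 10.7 RPKM (1.4 ± 0.29, adjusted p = 0.0123). The Cited1+ libraries of these 3 genes all lay above the P2 libraries. Hspa8 and Hsph1 did not overlap but were not called (0.21 and 0.27), and Hspb1 was not called (0.14).

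The 8 genes that fell in Cited1+ cells included Jun, with 161, 142 and 163 RPKM in Cited1+ cells and 255 and 266 RPKM in P2 Six2+ cells (-0.74 ± 0.11, adjusted p = 0.00362). Junb and Jun, which compete as partners of Fos, thus differed in opposite directions. Cyr61 had 149, 112 and 201 RPKM in Cited1+ cells and 254 and 399 RPKM in P2 Six2+ cells (-1.09 ± 0.27, adjusted p = 0.0245). Nr4a1 had 59.9, 51.3 and 73.6 RPKM in Cited1+ cells and 99.5 and 104 RPKM in P2 Six2+ cells (-0.73 ± 0.15, adjusted p = 0.0131), and Klf4 had 4.95, 4.16 and 6.15 RPKM against 10.3 and 8.64 RPKM (-0.79 ± 0.17, adjusted p = 0.0132). The groups of all 4 were apart.

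The other 4 that fell were feedback and stress regulators. Dusp1 had 19.6, 16.3 and 20.3 RPKM in Cited1+ cells and 27.4 and 34.1 RPKM in P2 Six2+ cells (-0.68 ± 0.14, adjusted p = 0.0122). Ppp1r15a had 21.4, 21.7 and 27.3 RPKM in Cited1+ cells and 38.9 and 39.5 RPKM in P2 Six2+ cells (-0.73 ± 0.13, adjusted p = 0.00659). Gadd45b had 4.80, 3.77 and 6.38 RPKM in Cited1+ cells and 7.78 and 18.3 RPKM in P2 Six2+ cells (-1.15 ± 0.33, adjusted p = 0.0384), and Zfp36l1 had 110, 155 and 127 RPKM against 172 and 212 RPKM (-0.56 ± 0.17, adjusted p = 0.0439). The call of Zfp36l1 held in 6 of 14 alternative settings and that of its relative Zfp36, which rose, in 10 of 14.

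Many of these calls were lost when a single library was left out. Leaving out a P2 library left 1 in that group, so counts are not given for it. Without Cited1+ replicate 1 the counts were 6 higher and 5 lower. Without Cited1+ replicate 3, which had the most genes above 0, they were 6 higher and 7 lower. Without the filter on low values they were 3 higher and 2 lower. Counts over all genes in these settings are not given here, so the changes cannot be read as particular to the members. Marker lists also differed between these groups. The 6 progenitor markers held 782 to 842 RPKM in Cited1+ and 254 to 260 RPKM in P2 Six2+ libraries, 7 stroma markers 109 to 122 and, in P2 Six2+, 37.5 to 42.7 RPKM, and 6 ureteric markers 50.5 to 72.9 and, in P2 Six2+, 15.5 to 18.1 RPKM. The 6 macrophage and leukocyte markers held 2.83 to 3.58 RPKM in Cited1+ and 14.4 to 16.1 RPKM in P2 Six2+ libraries, with 4 of 4 tested called lower, and 6 endothelial markers held 4.79 to 14.5 and, in P2 Six2+, 3.32 to 5.69 RPKM. The 4 erythroid markers (62.1 to 94.8 and, in P2 Six2+, 15.7 to 30.3 RPKM), 4 podocyte markers (4.92 to 9.75 and, in P2 Six2+, 15.3 to 25.4 RPKM) and 4 proximal tubule markers (12.4 to 14.0 and, in P2 Six2+, 3.96 to 8.54 RPKM) differed as well. The 4 macrophage and leukocyte markers tested each had a mean below 1 RPKM in Cited1+ cells. They passed the filter only through P2 Six2+ cells, so the direction of their calls was all but fixed in advance. The part of all these lists in the results was not tested.

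**Figure D5:**
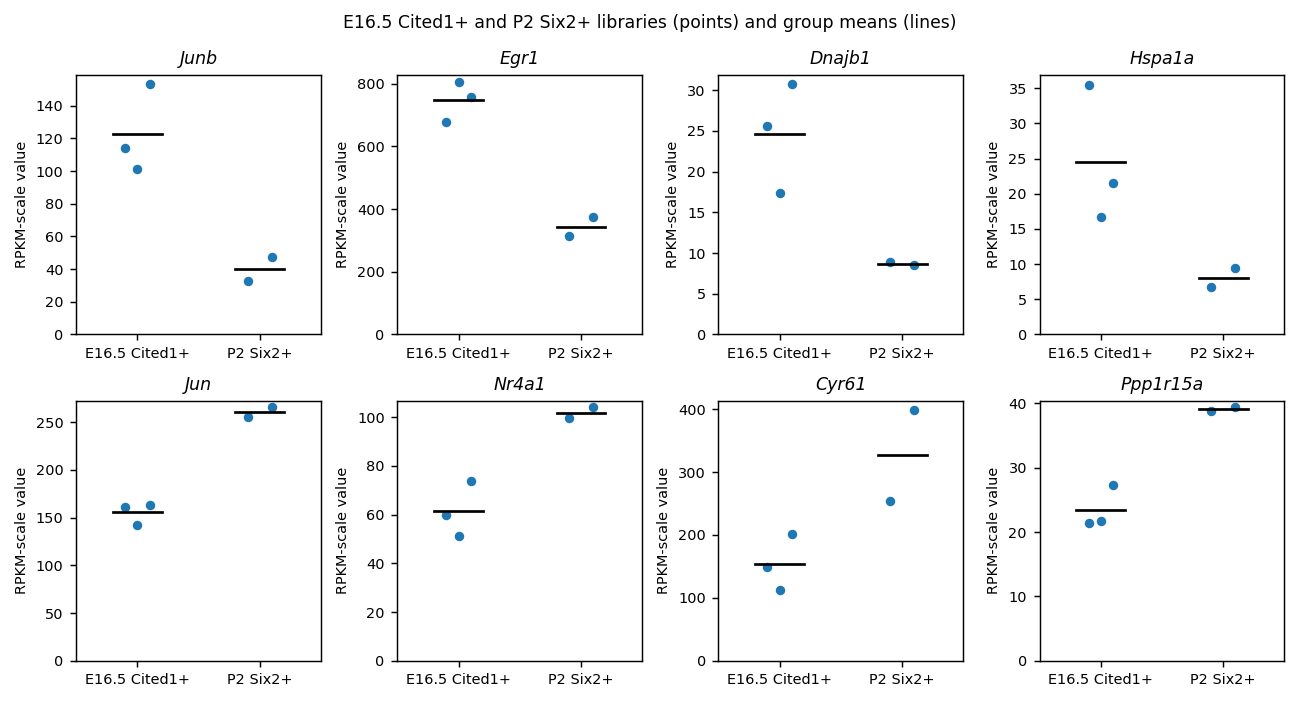
RPKM of 8 members in each Cited1+ library at E16.5 (left, n = 3) and each Six2+ library at P2 (right, n = 2), with lines at the group means. All Cited1+ points of Junb, Egr1, Dnajb1 and Hspa1a lie above the P2 points, and all those of Jun, Nr4a1, Cyr61 and Ppp1r15a lie below them.

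The comparisons share no library, and 5 genes were called in both, of the 12 called in the first and the 15 called in the second. How many of all genes were called in both was not counted. The overlap therefore describes these genes and is not read as a result about the list. Cyr61, Nr4a1 and Zfp36l1 were lower in Six2+ than in Six2- cells and lower in Cited1+ than in P2 Six2+ cells. Junb and Zfp36 were lower in Six2+ than in Six2- cells and higher in Cited1+ than in P2 Six2+ cells. The authors' deposited table of selected genes holds Atf3, Klf2, Klf6 and Nr4a1 as lower in Six2+ cells and Junb as higher in Cited1+ cells, and no other member.

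The 2 tables may have been scaled separately, so levels across all 4 groups are a description. By group mean, 17 of 34 genes were highest in Six2- cells, 8 in Six2+, 6 in Cited1+ and 3 in P2 Six2+ cells. Six2+ cells at E16.5 held the lowest mean of 15 genes, P2 Six2+ cells of 12 and Cited1+ cells of 7, while Six2- cells held the lowest of 0. The same order was not counted over all genes, so these counts cannot be read as particular to the members. Klf2 averaged 6.85 ± 4.34 RPKM in Six2+, 3.85 ± 1.26 RPKM in Cited1+ (n = 3 each) and 3.70 ± 0.818 RPKM in P2 Six2+ cells (n = 2), ranges that overlap, and 61.4 ± 22.2 RPKM in Six2- cells (n = 3), above all of them. Hspb1 was likewise highest in Six2- cells, at 5.15 ± 3.16, 5.93 ± 1.07 and 5.25 ± 0.893 RPKM in Six2+, Cited1+ and P2 Six2+ cells and 36.7 ± 17.5 RPKM in Six2- cells. Egr1 was set apart in Cited1+ cells, where its lowest library (678 RPKM) exceeded the highest of the other 8 libraries (480 RPKM in Six2- replicate 3). Btg1 was set apart in Six2+ cells at E16.5, with a lowest library of 64.3 RPKM, against a highest of 41.5 RPKM elsewhere.

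Other genes of the same responses moved in both directions, as did all genes. Among all genes tested, 20.5% were called higher and 18.1% lower in Six2+ over Six2- cells (30.3% and 22.2% with the replicate block). In Cited1+ over P2 Six2+ cells the shares were 16.3% and 12.7%. The counts of this and the next paragraph stand beside these shares, and no difference from them was tested. Of 33 further immediate early genes 31 were tested, and in Six2+ over Six2- cells 10 rose and 9 fell (10 and 10 with the replicate block, which added Rnd3), with a median difference of 0.09. Ctgf, a matricellular relative of Cyr61, had 3.31, 1.20 and 2.61 RPKM in Six2+ cells and 48.8, 20.1 and 26.6 RPKM in Six2- cells (-3.24 ± 0.34, adjusted p = 8.84e-05). Cebpd, a leucine zipper factor, had 0.809 to 1.09 RPKM in Six2+ cells and 9.91 to 10.6 RPKM in Six2- cells (-2.5 ± 0.13, adjusted p = 1.72e-06). Cdkn1a, the cell cycle inhibitor p21, had 14.1, 19.1 and 15.2 RPKM in Six2+ cells and 2.97, 3.31 and 2.79 RPKM in Six2- cells (2.08 ± 0.15, adjusted p = 8.41e-06). In Cited1+ over P2 Six2+ cells 6 rose and 5 fell, with a median of 0.16. Egr4, the remaining Egr factor, had 8.43, 4.22 and 27.7 RPKM in Cited1+ cells and 0.331 and 1.44 RPKM in P2 Six2+ cells (2.64 ± 0.64, adjusted p = 0.0224), and Myc had 40.5, 57.4 and 52.2 RPKM against 11 and 20.5 RPKM (1.65 ± 0.25, adjusted p = 0.00357). Cebpd in Six2+ cells and Egr4 in P2 Six2+ cells averaged below 1 RPKM. Each passed the filter only through the other group, so the direction of its call was all but fixed in advance.

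Of 16 further heat shock genes, all tested, 4 rose and 4 fell in Six2+ over Six2- cells (20.5% and 18.1% of all genes). In Cited1+ over P2 Six2+ cells 2 rose and 5 fell (16.3% and 12.7% of all genes). Hspa4l, an Hsp110 relative, was higher in Six2+ than in Six2- cells (1.78 ± 0.16, adjusted p = 3.67e-05). Dnajb4, an Hsp40 protein, had 6.69, 8.34 and 6.81 RPKM in Six2+ cells and 34.6, 33.4 and 25.9 RPKM in Six2- cells (-1.96 ± 0.15, adjusted p = 1.38e-05). The small heat shock proteins Cryab and Hspb8 fell in both comparisons, in Cited1+ over P2 Six2+ cells by log2 differences of -2.15 ± 0.19 (adjusted p = 0.000341) and -1.64 ± 0.21 (adjusted p = 0.00165). Cryab had 0.368, 0.76 and 0.491 RPKM in Six2+ cells and 6.09, 4.99 and 1.7 RPKM in Six2- cells. It had 1.26, 1.48 and 2.41 RPKM in Cited1+ cells and 10.9 and 10.8 RPKM in P2 Six2+ cells. Cryab in Six2+ cells and Hspb8 in Six2+ and in Cited1+ cells averaged below 1 RPKM. There each passed the filter only through the other group, so the direction of its call was all but fixed in advance. Of 14 upstream kinases and factors, 0 rose and 2 fell in Six2+ over Six2- cells (Elk3, -0.74 ± 0.12, adjusted p = 0.00108, and Mkl2, -0.55 ± 0.16, adjusted p = 0.0232), and 1 rose and 1 fell in Cited1+ over P2 Six2+ cells (Mapk14, 0.49 ± 0.12, adjusted p = 0.0221, and Nfkb1, -0.39 ± 0.11, adjusted p = 0.0351). With the replicate block the first comparison gave 3 higher and 3 lower: Hsf1 (0.29, adjusted p = 0.227, and 0.0242 blocked), Hsf2 (0.30, 0.158 and, blocked, 0.0313) and Rela (0.38, 0.08 and, blocked, 0.0149) passed as higher, and Nfkb1 (-0.34, 0.0614 and, blocked, 0.0207) as lower. Srf was called in neither comparison, with or without the block.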

How the data were processed

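Per the labels' protocols, RNA was extracted with a Qiagen RNeasy micro kit and libraries were stranded (Kapa). How strand was treated in counting is unknown, so overlapping genes are uncertain. Partek, TopHat2, bcl2fastq 2.17 and mm10 are named in the submitters' processing notes. The authors deposited 1 table for Six2+ and Six2- cells and 1 for Cited1+ and P2 Six2+ cells. The deposited values are called TPM but behave as RPKM: they sum to 321882.9 to 433447.3 per library where TPM gives 1000000. Low values of single-transcript genes lay within 0.05 of whole reads in a median of 64.2% of cases. The read depth of each library was chosen to give the largest such share. The 10% by chance holds for a fixed depth and is too low a yardstick here. The authors' deposited fold ratio and p-value columns were used only for their lists of selected genes. A total of 27 rows with dates in place of symbols were left out.

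Each table was fitted alone on log2(RPKM + 1) with limma 3.58.1 (R 4.3.3) and a mean-variance trend, for genes with a mean of at least 1, and a threshold of 0.05 on the Benjamini-Hochberg adjusted p. The fit was tested on simulated data. Groups and replicate numbers come from the labels. Deviations of Six2+ and Six2- libraries with the same number correlated at 0.47, 0.45 and 0.40 over 11882 genes, so the number was taken as pairing them; for Cited1+ and P2 Six2+ libraries the values were 0.04 and -0.03 over 11876 genes, and it was not. The genes and lists were chosen with earlier results of these data known. Members that passed with groups apart or had the largest spread are given in full, and from each further list the 2 passing genes with the largest change; Cdkn1a, Srf, Rnd3 and the genes called with the block alone were added after their values were seen. Single values of some marker genes are not reported here. Alternatives were the pseudocount, the filter, the trend, rescaling, 1 fit of all groups, the replicate block and leaving out each library. Promoters and coordinates are from RefSeq, GRCm38.p6.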

Additional observations from a re-analysis of the deposited data

How the results depend on the processing

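No value changed its direction past the threshold under any alternative run. In Six2+ over Six2- cells the count of members called lower, 11, became 20 with the replicate block, 21 with the block and rescaling by the median ratio (an alternative chosen after seeing the data) and 9 to 18 when single libraries were left out. The count called higher, 1, became 2 with the block. Apart from these added calls the block changed no member's call there. In Cited1+ over P2 Six2+ cells the count called higher, 7, became 3 without a filter on low values and 6 to 10 when single Cited1+ libraries were left out. The count called lower, 8, became 2 without the filter and 2 with all 4 groups in 1 fit, and it fell when single libraries were left out. There the replicate block gave 6 higher and 7 lower, with 895 and 868 among all genes. The causes were not tested. Apart from the replicate block, counts over all genes are not given for the settings of these member counts. This holds for the filter, the 1 fit of all groups, the block with rescaling and the left-out libraries. The changes therefore cannot be read as particular to the members. Leaving out a library moved the median difference between -1.11 and -0.36 in Six2+ over Six2- cells and between -0.04 and 0.23 in Cited1+ over P2 Six2+ cells. Among all genes, 53.2% of the calls in Six2+ over Six2- cells were higher, and 42.3% after rescaling to the same total, when 1546 genes were called higher and 2106 lower. Leaving 1 P2 library assumes that it varies like the other group. P2 Six2+ replicate 2, at 16500000 implied reads, was the shallowest library.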

Other observations

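Values for 3 further stress lists follow; 20.5% of all genes tested were called higher and 18.1% lower in Six2+ over Six2- cells (30.3% and 22.2% with the replicate block), and 16.3% and 12.7% in Cited1+ over P2 Six2+ cells. No difference between lists was tested. Srxn1, Icam1 and Cxcl2 averaged below 1 RPKM in Six2+ cells and passed the filter only through Six2- cells. The direction of their calls in that comparison was therefore all but fixed in advance. Of 7 oxidative stress genes 6 were tested, and in Six2+ over Six2- cells 1 rose and 4 fell (5 with the block, which added Gclm), with a median difference of -0.72. Hmox1, the haem-degrading enzyme haem oxygenase, had 4.07, 5.23 and 4.89 RPKM in Six2+ cells and 16.8, 16.1 and 15.9 RPKM in Six2- cells (-1.60 ± 0.13 on the log2 scale with SE, adjusted p = 1.82e-05), a narrow spread in both groups. Srxn1, a sulfiredoxin, had 0.92, 0.681 and 0.767 RPKM in Six2+ cells and 4.34, 2.91 and 3.2 RPKM in Six2- cells (-1.31 ± 0.16, adjusted p = 0.000281). Of 8 acute inflammatory genes 5 were tested, and 0 rose and 3 fell (4 with the block, which added Cxcl1). Icam1, an adhesion molecule, had 0.421, 0.428 and 0.375 RPKM in Six2+ cells and 6.74, 5.99 and 3.65 RPKM in Six2- cells (-2.17 ± 0.20, adjusted p = 4.31e-05), and Cxcl2, a neutrophil-attracting chemokine, 0.219, 0.478 and 0.205 RPKM in Six2+ and 3.33, 5.55 and 1.71 RPKM in Six2- cells (-1.72 ± 0.29, adjusted p = 0.00169). Of 11 genes of the integrated and unfolded protein stress responses 9 were tested, and 2 rose and 1 fell; with the block 4 rose, Atf4 (adjusted p = 0.0701, and 0.0432 blocked) and Ddit4 (0.14 and, blocked, 0.0152) being added. Xbp1, a factor of the unfolded protein response, had 26.1, 27.8 and 30.6 RPKM in Six2+ cells and 62.3, 55.6 and 53.6 RPKM in Six2- cells (-1 ± 0.12, adjusted p = 0.000232), and Herpud1, a protein of endoplasmic reticulum quality control, 29.9, 28.3 and 44.2 RPKM in Six2+ and 21.8, 18.3 and 17.2 RPKM in Six2- cells (0.79 ± 0.18, adjusted p = 0.00893).

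In Cited1+ over P2 Six2+ cells 1 oxidative stress gene rose and 0 fell, 2 acute inflammatory genes fell and 0 rose, and 2 genes of the integrated and unfolded protein stress responses rose and 1 fell. Ddit4, a stress-induced inhibitor of mTOR signalling, had 10.3, 7.37 and 10.6 RPKM in Cited1+ cells and 2.96 and 2.36 RPKM in P2 Six2+ cells (1.5 ± 0.18, adjusted p = 0.0012). Sesn2, a stress-induced sestrin, had 6.48, 4.98 and 6.27 RPKM in Cited1+ cells and 1.91 and 2.63 RPKM in P2 Six2+ cells (1.08 ± 0.17, adjusted p = 0.00379). Txnrd1, a thioredoxin reductase and the 1 oxidative stress gene that rose, had 34.3, 34.1 and 37.1 RPKM in Cited1+ cells and 24 and 22.7 RPKM in P2 Six2+ cells (0.57 ± 0.10, adjusted p = 0.0059). Cxcl2 had 0.366, 0.187 and 0.721 RPKM in Cited1+ cells and 4.33 and 3.17 RPKM in P2 Six2+ cells (-1.74 ± 0.22, adjusted p = 0.00152), and Ccl2, a monocyte-attracting chemokine, fell as well (-1.67 ± 0.20, adjusted p = 0.00119). Cxcl2 and Ccl2 averaged below 1 RPKM in Cited1+ cells and passed the filter only through P2 Six2+ cells. The direction of their calls was therefore all but fixed in advance. The macrophage and leukocyte marker sums given above were lower in Cited1+ cells too, and their part was not tested.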
